A study of Homo sapiens with 60 samples.

Results

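The genes described here are the 3 fibrinogen chain genes FGA, FGB and FGG, the alpha-1 antitrypsin gene SERPINA1 and the complement gene C3. They are 5 of the 60675 genes in the table of counts, and all 5 were among the 18396 genes that passed the filter on low counts. They were chosen by function, as secreted proteins typical of liver that A549 cells make, and from earlier results of these same libraries, so their levels are given as a description. A549 is an established human lung carcinoma line. The cells were exposed for 24 h to vehicle (DMSO, n = 3, a dose of 0) or to 1 of 8 ethanol extracts, and RNA was sequenced in 60 libraries. Cells received Polygalae Radix at 380, 76 or 15.2 µg/mL (n = 2 per dose) and Aucklandiae Radix, also n = 2 per dose, at 370, 74 or 14.8 µg/mL. The doses of the other 6 extracts were 500, 100 and 20 µg/mL, with n = 3 per dose for Guibi-tang, Saengmaek-san, Saposhnikoviae Radix and Menthae Herba, n = 2 for Soyo-san and n = 1 for Okbyeongpung-san. These doses are called high, medium and low. The sample labels and the series text give different DMSO concentrations for the vehicle, and the concentration is therefore not stated here.

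Fibrinogen is built from the alpha, beta and gamma chains that FGA, FGB and FGG encode, and thrombin cleaves it to form the fibrin clot. The genes lie side by side and are classically expressed in hepatocytes, where interleukin-6, acting through STAT3 and together with glucocorticoid, raises them in the acute-phase response. SERPINA1 encodes the inhibitor that protects the lung from neutrophil elastase, and C3 encodes the complement protein on which the activation pathways converge. Lung epithelial cells can also make fibrinogen, and A549 has been used as a model of that synthesis.

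On GRCh38 the chain genes form a cluster on chromosome 4, with FGB (ENSG00000171564) at 154562956 to 154571086 on the plus strand, FGA (ENSG00000171560) at 154583126 to 154590766 on the minus strand and FGG (ENSG00000171557) at 154604134 to 154612967 on the minus strand. C3 (ENSG00000125730) lies on chromosome 19 at 6677704 to 6730562 and SERPINA1 (ENSG00000197249) on chromosome 14 at 94376747 to 94390693, both on the minus strand. The span of C3 overlaps that of GPR108 on the same strand, which reached 32.9 CPM (counts scaled to library size), so counting may have divided reads between them. Because the chains moved together in most comparisons below, their promoters were looked at for 2 short motifs. Sequence was taken from RefSeq (GRCh38.p14), which held 4 of the 5 genes, all but C3. The motif CTGGGA is the core of the acute-phase element bound by STAT3, and ATTAAC is a short motif found in promoters of liver genes. Both were searched on both strands of the 250 bases before each start site, and they share no overlap in the genes named. The upstream sequences of FGA (chr4:154590767-154590992, minus strand) and FGB (chr4:154562730-154562955, plus strand) are shown for the spacing of these motifs, which are in capitals.
FGA: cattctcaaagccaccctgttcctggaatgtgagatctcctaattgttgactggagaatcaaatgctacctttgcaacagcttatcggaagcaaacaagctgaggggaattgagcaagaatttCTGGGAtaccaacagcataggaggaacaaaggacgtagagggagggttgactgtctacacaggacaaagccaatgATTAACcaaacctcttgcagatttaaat
FGB: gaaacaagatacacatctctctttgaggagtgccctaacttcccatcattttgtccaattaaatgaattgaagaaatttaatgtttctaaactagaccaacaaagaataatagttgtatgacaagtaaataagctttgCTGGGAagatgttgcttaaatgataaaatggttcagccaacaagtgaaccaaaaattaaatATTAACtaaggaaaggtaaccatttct

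In both sequences the acute-phase core lies upstream of the other motif. The 24 bases next to the start site were searched but are not printed. Positions are counted from the start site and not from the end of the printed sequence. CTGGGA covers positions -127 to -122 of FGA and -112 to -107 of FGB, and ATTAAC covers -52 to -47 and -51 to -46, counted from the more upstream of 2 RefSeq start sites of FGB. From the other FGB start site they lie at -143 to -138 and -82 to -77. FGG held CTGGGA at -161 to -156 and, on the other strand, at -42 to -37, with no ATTAAC. SERPINA1 held both motifs on the strand opposite to the gene. Of 35116 promoters, 28.7% held CTGGGA, 6.23% held ATTAAC and 1.29% held both. These matches describe letters and were not tested as binding sites.

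Total expected counts per library ran from 17113963 to 33363661. The libraries also split into 2 classes not named in the labels, by the gene ENSG00000282955, which lay at 3.5 CPM or less in 38 libraries (class 1) and at 17.6 CPM or more in 22 (class 2). All vehicle, Soyo-san and Okbyeongpung-san libraries were class 2, those of Menthae Herba and Aucklandiae Radix were all class 1, and 9 groups were mixed. Vehicle is also a library set of its own in the labels, so each comparison with vehicle is also one between sets, whereas high and low doses of an extract share a set. The 5 epithelial markers were present in every library and summed to 8640 to 9050 CPM in vehicle and to 1230 to 11500 CPM over all libraries. Keratins made up nearly all of that sum, with vehicle means of 2160 CPM for KRT7, 3730 CPM for KRT8 and 2880 CPM for KRT18. The other epithelial markers were far lower, at 33.9 CPM for CDH1 and 4.84 CPM for EPCAM. Of the 8 hepatocyte markers 7 stayed under 1 CPM in every library, ALB among them. CPS1 was expressed throughout, and CYP2E1, which also passed the filter on low counts, reached 0.811 CPM. Of the 8 alveolar markers 7 also stayed under 1 CPM, ABCA3 being the other. The acute-phase genes CRP, SAA1 and HP reached no more than 0.0477, 0.105 and 0.198 CPM in any library.

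In vehicle the chains were abundant messages and SERPINA1 was nearly absent. Per kilobase of exon, the 3 vehicle libraries averaged 82.8 CPM for FGB, 49.46 CPM for FGA, 37.0 CPM for FGG, 4.767 CPM for C3 and 0.1117 CPM for SERPINA1. The order of FGA and FGG depended on the length used. Per kilobase of the longest transcript FGB stood at 113.5 CPM, FGG at 65.58 CPM and FGA at 53.2 CPM. SERPINA1 had 12, 16 and 16 counts in the vehicle libraries and 1 to 38 counts over all 60 libraries, at most 1.718 CPM. It was listed as a liver-type protein that A549 makes, and its RNA was near the limit of detection here. Over all libraries FGB ran from 47.19 through a median of 220.2 to 297.7 CPM, FGA from 50.8 through 206.2 to 238.1 CPM, FGG from 31.59 through 141.9 to 172.3 CPM and C3 from 4.178 through 37.28 to 48.68 CPM.

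**Figure D1:**
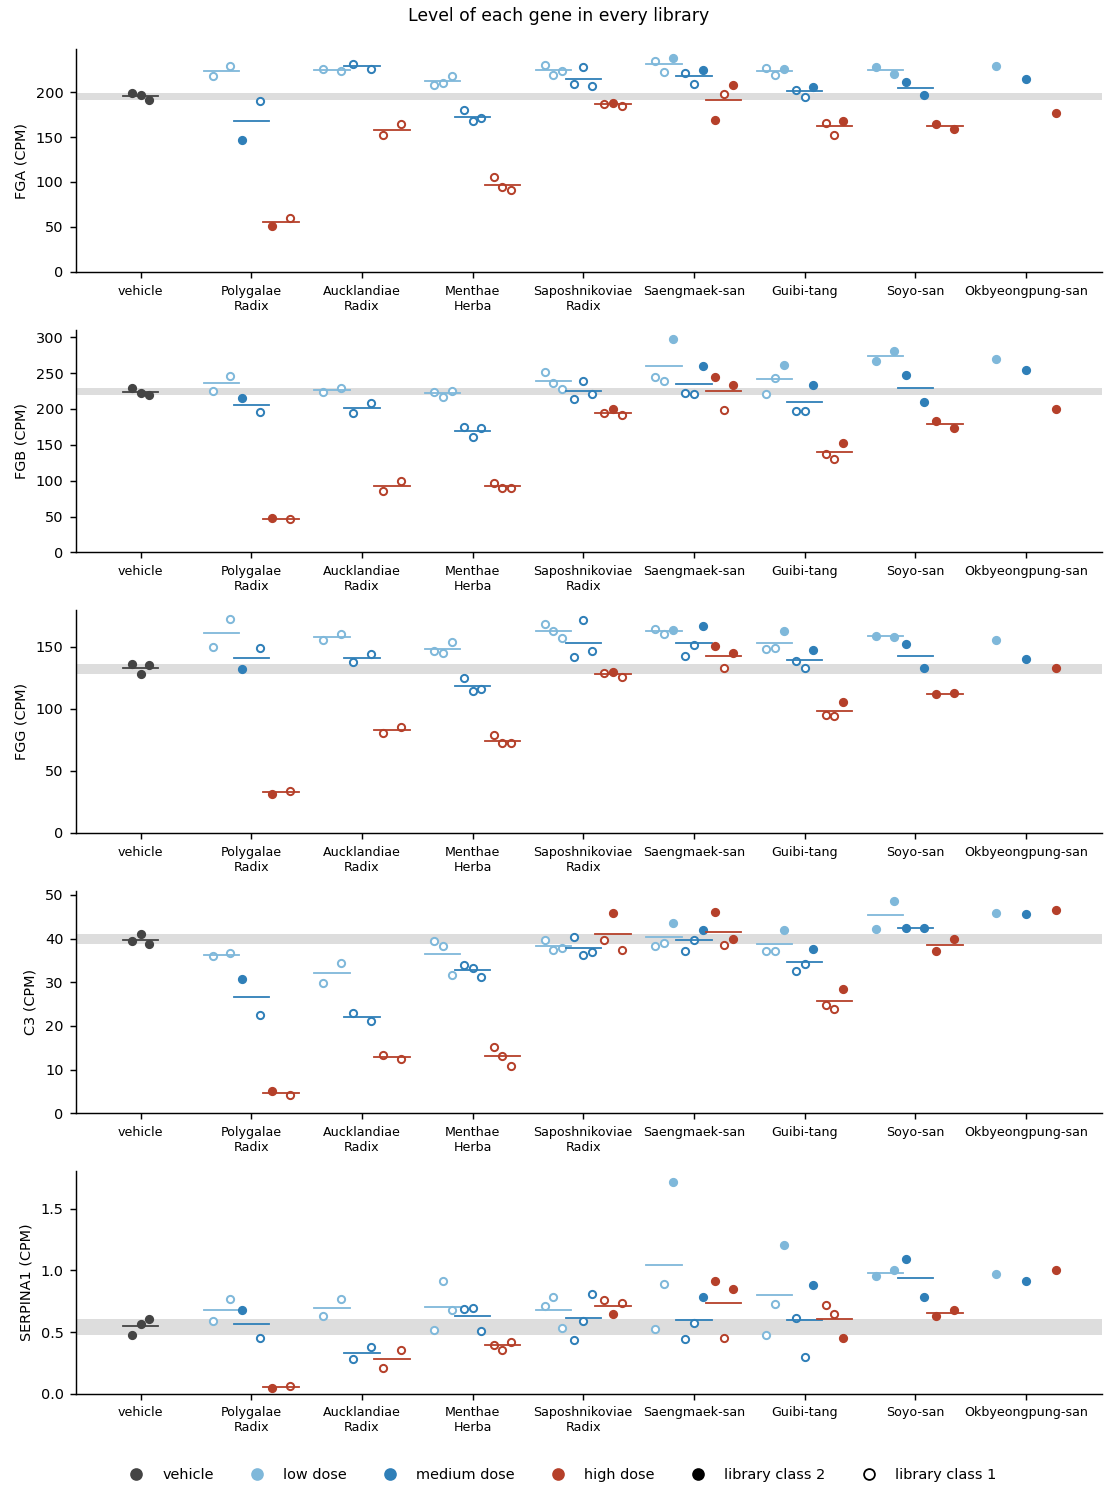
Level of each gene (CPM, vertical axis) in every library of vehicle and of the 8 extracts, coloured by dose, with open points for library class 1, lines for group means and a grey band for the vehicle range. The high dose of Polygalae Radix is the lowest group for all 5 genes, from 55.15 CPM for FGA to 0.05851 CPM for SERPINA1, and every low dose library lies above every vehicle library for FGA and FGG. The share of all genes with such an order was not counted.

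When the 25 groups were ordered by mean, the Polygalae Radix high dose came lowest for all 5 genes and did not overlap the next group for any of them. For the 3 chains the Menthae Herba high dose came next, at 96.89 CPM for FGA, 92.41 CPM for FGB and 74.28 CPM for FGG, followed by the Aucklandiae Radix high dose. Menthae Herba and Aucklandiae Radix overlapped for FGB and did not for FGA or FGG. Most other neighbours overlapped: 21 of 24 neighbouring pairs for FGA, 20 for FGB, 17 for FGG, 19 for C3 and 21 for SERPINA1. How often groups stood apart in this way among all genes was not counted, so this order is a description only. The highest group mean was the Saengmaek-san low dose for FGA, the Soyo-san low dose for FGB and the Saposhnikoviae Radix low dose for FGG. In these bulk libraries, fewer cells expressing a gene and less RNA per cell cannot be told apart.

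The first question was which of the genes differed from vehicle at the high dose. A gene was called at an edgeR quasi-likelihood adjusted p under 0.05, with adjustment over all genes tested, and every call in this comparison was a decrease. With Polygalae Radix 5 of 5 genes fell, in a comparison that called 59.6% of all genes tested. Aucklandiae Radix lowered 4 of 5 (background 35.7%) and Menthae Herba 4 of 5 (29.6%), SERPINA1 being the exception in both. Guibi-tang lowered 4 of 5 against a background of 9.56%, again without SERPINA1. Soyo-san lowered the 3 chains (28.6%). No gene was called with Saposhnikoviae Radix (1.04%) or Saengmaek-san (3.79%), where edgeR gave an unadjusted p under 0.05 for FGB alone with Saposhnikoviae Radix and for none with Saengmaek-san.

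When the high dose was set against the low dose of its extract, with no vehicle library involved, the calls were again all decreases. They numbered 5 of 5 with Polygalae Radix (background 57%), 4 of 5 with Aucklandiae Radix (18.4%) and 4 of 5 with Menthae Herba (15.5%). With Guibi-tang 4 of 5 fell where 2.94% of all genes were called, and with Soyo-san the 3 chains fell where 1.24% were called. FGG alone was called with Saposhnikoviae Radix (0.0707%), and no gene with Saengmaek-san (0.0707%), for which the unadjusted p was under 0.05 for the 3 chains and DESeq2 called FGA. The genes were chosen with such results known, and no count was tested against its background. With library class as a covariate, each of the 41 calls of these comparisons was also made. In class 1 libraries alone 18 of 18 calls that could be fitted were made, and in class 2 libraries alone 12 of 19, where an arm is often a single library assumed to vary like the rest.

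**Figure D2:**
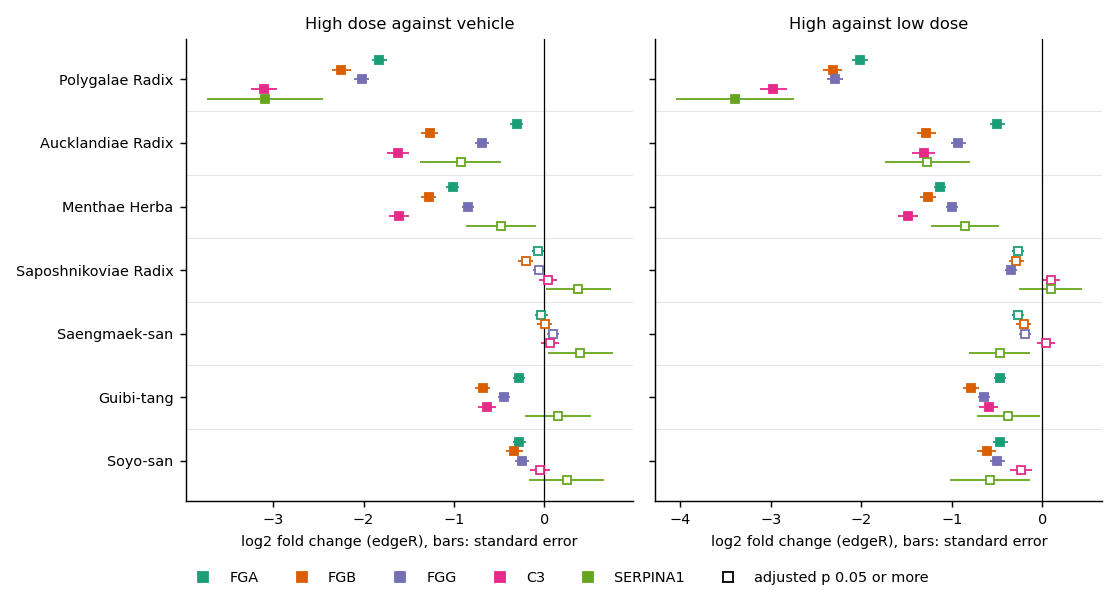
Log2 fold change (edgeR, horizontal axis) with its standard error for each gene and each of the 7 replicated extracts, high dose against vehicle on the left and high against low dose on the right, with open symbols where the adjusted p was 0.05 or more. Every filled symbol lies left of zero, and the bars of SERPINA1 are wide because it had 1 to 38 counts per library.

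FGB, which encodes the beta chain, was the most abundant of the genes per kilobase. It measured 229.7, 222.8 and 220.1 CPM in the vehicle libraries and 47.25 and 47.19 CPM in the Polygalae Radix high dose. These groups lie far apart, and the log2 fold change was -2.25 ± 0.10 (SE, adjusted p = 6.73e-22). Aucklandiae Radix at the high dose gave 85.9 and 100.1 CPM, for a log2 fold change of -1.27 ± 0.10 (adjusted p = 1.53e-13). Menthae Herba gave 97.01, 90.24 and 89.97 CPM, a change of -1.28 ± 0.09 (adjusted p = 1.84e-15). Under these extracts FGB stood at nearly the same level, 41.5% of the vehicle mean with Aucklandiae Radix and 41.2% with Menthae Herba. Guibi-tang at the high dose gave 137.2, 129.9 and 153.0 CPM, for a log2 fold change of -0.68 ± 0.08 (adjusted p = 2.16e-07), and no library overlapped vehicle. Soyo-san gave 182.8 and 173.9 CPM, a change of -0.33 ± 0.09 (adjusted p = 0.00737), which missed the threshold without its high dose replicate 2 (adjusted p = 0.0971). Saposhnikoviae Radix gave 194.1, 199.6 and 191.3 CPM, all below vehicle, yet the change of -0.20 ± 0.08 was not called (adjusted p = 0.24). In Saengmaek-san the high dose libraries, at 244.6, 197.9 and 233.3 CPM, lay on both sides of vehicle.

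FGA, which encodes the alpha chain that carries fibrinopeptide A, measured 198.6, 197.1 and 191.3 CPM in vehicle. The Polygalae Radix high dose gave 50.8 and 59.49 CPM, for a log2 fold change of -1.82 ± 0.08 (adjusted p = 2.44e-22). Menthae Herba gave 105.3, 94.35 and 90.97 CPM, a change of -1.01 ± 0.07 (adjusted p = 2.4e-15). Aucklandiae Radix, which held FGB at 41.5% of vehicle, left FGA at 152.5 and 164.2 CPM. That change was -0.31 ± 0.08 (adjusted p = 0.00151) and it missed the threshold without high dose replicate 2 (adjusted p = 0.0527). Guibi-tang gave 165.5, 152.3 and 167.4 CPM and a change of -0.27 ± 0.07 (adjusted p = 0.00574), likewise not called without high dose replicate 2 (adjusted p = 0.0542). Soyo-san gave 164.6 and 159.3 CPM and a change of -0.27 ± 0.08 (adjusted p = 0.00596), not called without high dose replicate 2 (adjusted p = 0.0797). These 3 extracts thus held FGA at 80.9%, 82.7% and 82.8% of the vehicle mean. Saposhnikoviae Radix, at 187.1, 187.5 and 184.6 CPM, lay just below the vehicle range and was not called (-0.07 ± 0.07, adjusted p = 0.674). Saengmaek-san spanned vehicle, from 169.4 to 207.7 CPM.

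FGG encodes the gamma chain, which carries the platelet-binding end of fibrinogen, and measured 136.1, 128.1 and 135.3 CPM in vehicle. The Polygalae Radix high dose gave 31.59 and 34.02 CPM, for a log2 fold change of -2.02 ± 0.08 (adjusted p = 1.43e-23). Menthae Herba gave 78.53, 72.15 and 72.17 CPM, a change of -0.84 ± 0.07 (adjusted p = 4.39e-13), and Aucklandiae Radix 80.48 and 85.12 CPM, a change of -0.69 ± 0.08 (adjusted p = 2.66e-09). FGG thus stood at 55.8% of the vehicle mean with Menthae Herba and 62.2% with Aucklandiae Radix, where FGB stood at 41.2% and 41.5%. Guibi-tang gave 94.85, 94.2 and 105.4 CPM, a change of -0.44 ± 0.07 (adjusted p = 1.42e-05). Soyo-san gave 111.9 and 112.5 CPM, a change of -0.25 ± 0.08 (adjusted p = 0.0126), not called without either of its high dose libraries (adjusted p of 0.0753 without replicate 1 and 0.0782 without replicate 2). Saposhnikoviae Radix, at 128.9, 129.7 and 125.9 CPM, and Saengmaek-san, at 150.3, 132.5 and 145.0 CPM, overlapped vehicle.

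Within extracts, the group means of the chains mostly ran in order of dose. Over the 8 extracts the group means fell from low through medium to high dose in 8 for FGB, 8 for FGG and 7 for FGA, against 5 for C3 and 4 for SERPINA1. Libraries of neighbouring doses stayed apart at both steps in 5 extracts for FGA, 5 for FGB and 6 for FGG, and FGA in Aucklandiae Radix averaged 228.4 CPM at the medium and 224.1 CPM at the low dose. Every high dose library lay below every low dose library of its extract in 8 extracts for FGA and FGG and in 7 for FGB. These counts include Okbyeongpung-san, where 1 library per dose makes any ordered values count as apart. The share of all genes set apart in this way was not counted, so these numbers are a description only. With Polygalae Radix the high dose held 24.7%, 20.0% and 20.4% of the low dose mean for FGA, FGB and FGG. With Menthae Herba these values were 45.7%, 41.7% and 50.1%, and with Aucklandiae Radix 70.7%, 41.0% and 52.4%. Guibi-tang followed at 72.3%, 57.9% and 64.0%, with log2 fold changes of -0.47 ± 0.07, -0.79 ± 0.08 and -0.64 ± 0.07 (adjusted p of 6.93e-06, 1.01e-08 and 7.64e-09). Soyo-san followed at 72.2%, 65.2% and 70.8%, with changes of -0.47 ± 0.08, -0.62 ± 0.10 and -0.50 ± 0.08 (adjusted p of 0.00104, 0.000446 and 0.000446). In class 2 libraries alone, where Guibi-tang has 1 library per dose, FGB was called for this extract (adjusted p = 0.0392) and FGA and FGG were not (0.448 and 0.0663), at nearly the same fold changes of -0.78, -0.44 and -0.63. For Soyo-san that fit called FGB and FGG and not FGA (adjusted p = 0.0546).

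The mildest extracts also showed lower chains at the high dose than at the low dose, mostly short of the threshold. With Saposhnikoviae Radix FGG went from 168.3, 162.7 and 157.3 CPM at the low dose to 128.9, 129.7 and 125.9 CPM at the high dose, with no overlap. Its log2 fold change was -0.34 ± 0.07 (adjusted p = 0.0123). That call was lost whichever of high dose replicates 1, 2 and 3 or low dose replicates 1 and 2 was left out (adjusted p up to 0.142), and in a fit of only these 2 groups (adjusted p = 0.0546). FGA and FGB changed by -0.27 ± 0.07 and -0.29 ± 0.08 (adjusted p of 0.189 and 0.429), and in class 1 libraries alone all 3 chains were called, with adjusted p of 0.0286, 0.0225 and 0.00899. With Saengmaek-san the changes were -0.27 ± 0.07 for FGA, -0.21 ± 0.08 for FGB and -0.19 ± 0.07 for FGG, with adjusted p from 0.129 to 0.541. FGB in this extract was called once class was a covariate, at -0.27 (adjusted p = 0.0219). Okbyeongpung-san, with 1 library per dose and no test, gave 228.8, 214.6 and 176.3 CPM of FGA from low to high dose. Its FGB went through 270.3, 253.8 and 199.6 CPM and its FGG through 155.7, 140.1 and 132.9 CPM. At the high dose FGA and FGB lay below the vehicle range, by log2 ratios of -0.15 and -0.167, and FGG inside it.

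**Figure D3:**
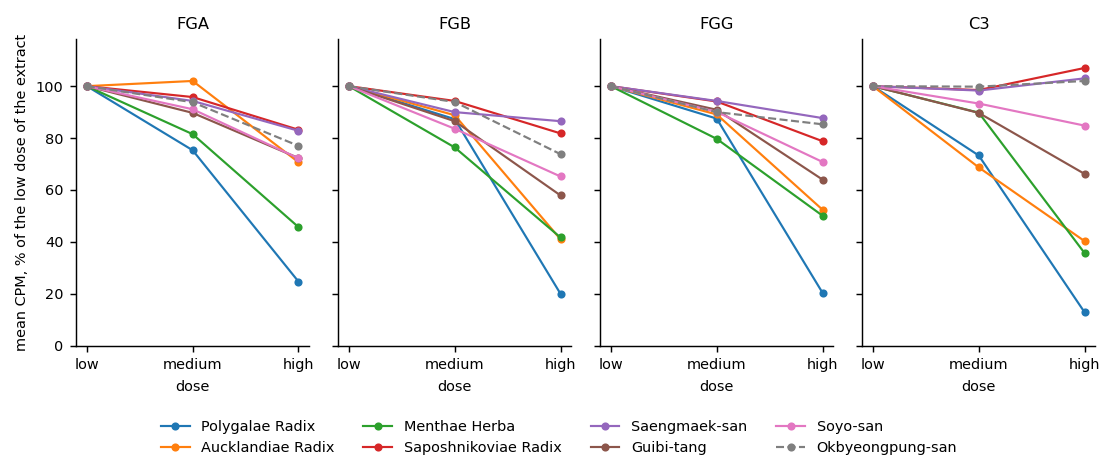
Mean level of FGA, FGB, FGG and C3 at the low, medium and high dose (horizontal axis) as a percentage of the low dose mean of the same extract (vertical axis), 1 line per extract, dashed for Okbyeongpung-san with 1 library per dose. The chains fall at the high dose in all 8 extracts, to between 20.0% and 87.7% of the low dose, while C3 stays at 102.0% to 107.0% in 3 of them.

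At the medium dose the chains differed from the low dose in 2 extracts. These comparisons were added after the data were seen. With Menthae Herba the 3 chains fell where 0.174% of all genes were called: FGB went from 223.5, 216.6 and 225.2 CPM to 174.2, 160.8 and 173.3 CPM (log2 fold change -0.39 ± 0.08, adjusted p = 0.0283). FGA and FGG changed by -0.30 ± 0.07 and -0.33 ± 0.07 (adjusted p of 0.0451 and 0.0176). In all 3 genes the medium and low dose libraries did not overlap, but the calls were lost in most fits that left out 1 library: FGA was called in 0 of 6 such fits, FGB in 1 of 6 and FGG in 2 of 6, with adjusted p up to 0.327. With Polygalae Radix FGA and C3 fell where 11.8% were called, FGA from 218.0 and 229.0 CPM to 146.6 and 189.8 CPM (-0.41 ± 0.08, adjusted p = 0.000538). The lower of those medium dose libraries was class 2 and the other class 1, and without the class 2 library, replicate 2, the FGA change was -0.24 (adjusted p = 0.158). C3 changed by -0.46 ± 0.13 (adjusted p = 0.0119) and by -0.24 without medium dose replicate 3 (adjusted p = 0.239). In a fit of only these libraries neither was called (adjusted p = 0.551 for both). None of the genes was called at the medium dose of Aucklandiae Radix (0.00544%), Soyo-san (0.0109%), Saposhnikoviae Radix (0%), Saengmaek-san (0%) or Guibi-tang (0%). In those 5 extracts the 3 chains changed by -0.26 to 0.03 against the low dose, and C3 in Aucklandiae Radix by -0.54 ± 0.13 (adjusted p = 0.114), which DESeq2 called (adjusted p = 0.0416) and which was also called with class as a covariate (adjusted p = 0.005). Unadjusted p under 0.05 was reached there by C3, FGG and SERPINA1, with Guibi-tang by the 3 chains, with Saengmaek-san by SERPINA1, with Soyo-san by FGB and with Saposhnikoviae Radix by none.

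Low doses carried somewhat more FGA and FGG than vehicle. Every low dose library lay above every vehicle library in 8 of 8 extracts for FGA and FGG, in 3 for FGB and in 2 for C3. All of these counts use the same vehicle libraries, and Okbyeongpung-san has 1 low dose library. How many of all genes lay apart from vehicle in this way was not counted. For FGG the low dose groups averaged 148.4 to 162.8 CPM against 133.2 ± 4.4 CPM (SD, n = 3) in vehicle. In edgeR comparisons added after the data were seen, FGG was called higher in 5 of 7 extracts, by 0.25 to 0.29 on the log2 scale. With Polygalae Radix, Aucklandiae Radix, Saposhnikoviae Radix and Saengmaek-san it was the only one of the 5 genes called, where 6.39%, 7.24%, 4.1% and 0.522% of all genes were called. With Soyo-san FGB was called as well (10.7%), at 0.29 ± 0.09 (adjusted p = 0.0401). With Menthae Herba (13.1%) and Guibi-tang (0.261%) none was called, and FGG differed by 0.16 ± 0.07 and 0.20 ± 0.07 (adjusted p of 0.115 and 0.195). FGA lay 0.12 to 0.24 higher in the 7 extracts, with adjusted p from 0.0802 to 0.258. All 7 comparisons share the 3 vehicle libraries, which are a set of their own, so the low dose and the library set cannot be told apart. Whichever library was left out, FGG with Aucklandiae Radix, Saengmaek-san and Soyo-san and FGB with Soyo-san were no longer called. FGG was called in 2 of 5 such fits with Polygalae Radix and in 3 of 6 with Saposhnikoviae Radix. Fits of only the libraries compared, in contrast, called FGA higher in 6 of 7 extracts, and with class as a covariate FGB was called higher in 6 of 7, so which chain was called depended on the fit.

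C3, the central complement protein, measured 39.46, 40.99 and 38.64 CPM in vehicle and did not track the chains in every extract. The Polygalae Radix high dose gave 5.172 and 4.178 CPM, for a log2 fold change of -3.10 ± 0.14 (adjusted p = 5.71e-22). Aucklandiae Radix gave 13.4 and 12.46 CPM, a change of -1.62 ± 0.12 (adjusted p = 9.56e-14), and Menthae Herba 15.14, 13.11 and 10.78 CPM, a change of -1.61 ± 0.11 (adjusted p = 1.64e-15). In these 3 extracts C3 stood at 11.8%, 32.6% and 32.8% of the vehicle mean, a lower percentage than any chain. Guibi-tang gave 24.78, 23.83 and 28.34 CPM, a change of -0.63 ± 0.10 (adjusted p = 3.33e-05). Soyo-san, which lowered the chains, left C3 at 37.25 and 39.84 CPM, overlapping vehicle, with a change of -0.04 ± 0.11 (adjusted p = 0.816). Saposhnikoviae Radix and Saengmaek-san gave 0.04 ± 0.10 and 0.06 ± 0.10, and Okbyeongpung-san stayed between 45.69 and 46.56 CPM at all 3 doses, above the vehicle range. Across the 25 group means, which share library sets and classes, C3 had a Spearman rho of 0.432 with FGA, 0.653 with FGB and 0.41 with FGG, whereas the chains had 0.868 to 0.896 among themselves.

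SERPINA1, the elastase inhibitor, was measured on few counts. Its Polygalae Radix high dose libraries held 1 and 2 counts, 3 in all against 44 in vehicle. That is 11.0% of the vehicle level per effective library size, with an exact 95% interval for counting error alone of 2.18% to 34.2%. The edgeR log2 fold change of -3.10 ± 0.64 (adjusted p = 6.56e-05) rests on those counts. Aucklandiae Radix held 6 and 11 counts at the high dose and 17 and 22 at the low dose, a change of -1.27 ± 0.47 that missed the threshold (adjusted p = 0.0543). It was called with class as a covariate (adjusted p = 0.0189). In the other 5 extracts the high dose changed SERPINA1 by -0.48 to 0.40 against vehicle, none called, with standard errors of 0.36 to 0.41.

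The chains did not fall in proportion. In vehicle the ratio of FGA to FGB per kilobase was 0.592 to 0.605, and in the Aucklandiae Radix high dose it was 1.12 and 1.22, against 0.665 and 0.689 at the low dose of the same extract. In these libraries, all class 1, FGA per kilobase thus passed FGB. The ratio also stood at 0.736 and 0.863 in the Polygalae Radix high dose, at 0.749 to 0.825 with Guibi-tang and at 0.692 to 0.743 with Menthae Herba. With Saposhnikoviae Radix it stayed at 0.643 to 0.661, and with Saengmaek-san it ranged from 0.474 to 0.684, the lowest being a class 2 library. In each of the 9 groups with both classes, every class 2 library had a lower ratio than every class 1 library, as in the Polygalae Radix medium dose, at 0.465 in class 2 and 0.663 in class 1. Vehicle is all class 2, so its ratio and that of class 1 groups differ in class as well as in treatment. The ratio of FGG to FGB was 0.433 to 0.462 in vehicle, 0.640 and 0.705 in the Aucklandiae Radix high dose and 0.601 to 0.609 with Menthae Herba. The low doses of these extracts gave 0.523 and 0.526 with Aucklandiae Radix and 0.492 to 0.514 with Menthae Herba. With Polygalae Radix the mean FGG to FGB ratio differed little, at 0.513 at the low dose and 0.523 at the high dose. With the length of the longest transcript in place of all exons, the mean FGA to FGB ratio was 0.469 in vehicle and 0.917 in the Aucklandiae Radix high dose, so FGA then stayed below FGB. These ratios were not tested.

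**Figure D4:**
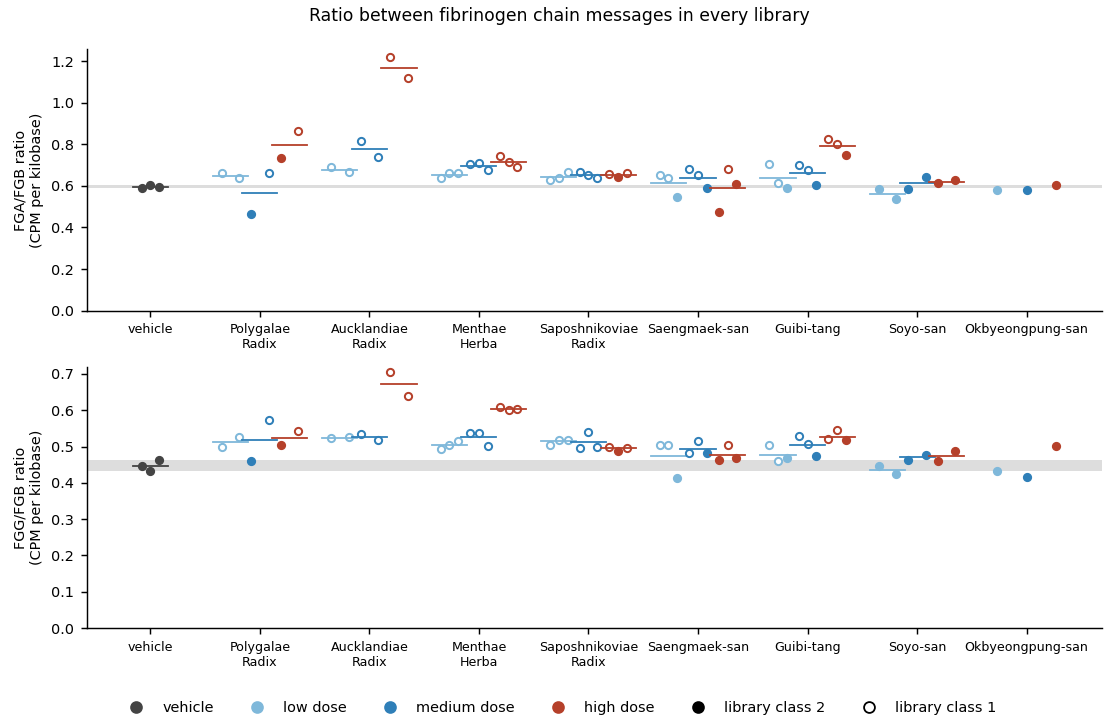
Ratio of FGA to FGB (top) and of FGG to FGB (bottom), in CPM per kilobase of exon, in every library, coloured by dose, with open points for library class 1 and a grey band for the vehicle range. The Aucklandiae Radix high dose stands highest in both panels, at 1.12 and 1.22 for FGA to FGB, and class 2 libraries of mixed groups lie low.

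Extracts of the same library set could be compared directly for their change from low to high dose. These 3 contrasts were added after the data were seen. The fall was smaller with Aucklandiae Radix than with Polygalae Radix for all 5 genes (background 45.9%), by 1.52 ± 0.12 for FGA, 1.03 ± 0.15 for FGB, 1.36 ± 0.12 for FGG and 1.66 ± 0.20 for C3 on the log2 scale. The difference for SERPINA1 was 2.13 ± 0.86 (adjusted p = 0.0403), which DESeq2 did not call (adjusted p = 0.105) and which was lost without Polygalae Radix high dose replicate 2 or 3 or low dose replicate 3, or Aucklandiae Radix low dose replicate 2 or high dose replicate 3 (adjusted p up to 0.18). Menthae Herba lowered the chains and C3 more than Saposhnikoviae Radix (4 of 5 called, background 6.43%), with differences of -0.86 ± 0.10 for FGA, -0.97 ± 0.12 for FGB, -0.65 ± 0.10 for FGG and -1.58 ± 0.15 for C3. Guibi-tang lowered FGB, FGG and C3 more than Saengmaek-san (3 of 5 called, background 0.451%), by -0.58 ± 0.12, -0.45 ± 0.10 and -0.64 ± 0.14. For FGA that difference was -0.20 ± 0.10 and was not called (adjusted p = 0.695). In a fit of only the libraries of Guibi-tang and Saengmaek-san compared, none of these was called (adjusted p of 0.625, 0.437 and 0.437), nor was any gene of the table. C3 and FGG were also lost when some single libraries were left out, with adjusted p up to 0.11 and 0.0613, as without Guibi-tang high dose replicate 2 or low dose replicate 3.

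Other acute-phase and liver-secreted genes were scarcer than the chains, and 16 of 37 were tested. With Polygalae Radix 13 of the 16 fell and none rose against vehicle, at a list median log2 change of -1.51 against 0.0498 over all genes tested, of which 59.6% were called. Apolipoprotein H (APOH) went from 4.141 ± 0.695 to 0.6036 ± 0.15 CPM (SD), a change of -2.81 ± 0.25, and alpha-1-microglobulin (AMBP) from 3.02 ± 0.499 to 0.4271 ± 0.0413 CPM, a change of -2.83 ± 0.28. With Aucklandiae Radix 8 fell and 1 rose (35.7% of all genes called), led by the lipopolysaccharide-binding protein LBP at -2.13 ± 0.30. Menthae Herba lowered 5 and raised 1 (29.6% of all genes), with ceruloplasmin (CP), the copper carrier of plasma, going from 13.61 ± 1.15 to 4.602 ± 1.05 CPM (-1.56 ± 0.14). Guibi-tang lowered CP by -0.79 ± 0.13 and vitronectin (VTN) by -0.58 ± 0.10, with 2 lower and 1 higher in all (9.56% of all genes). With Soyo-san 3 were higher and 1 lower than vehicle (28.6% of all genes), apolipoprotein E (APOE) being higher by 0.85 ± 0.13. None of the 16 was called against vehicle with Saposhnikoviae Radix or Saengmaek-san, where the class covariate gave 1 and 3 higher. Against the low dose none of the 16 was called higher with any replicated extract, and 1.24% of all genes were called there with Soyo-san.

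Of the complement list 19 of 22 genes were tested. Against vehicle 11 fell and 1 rose with Polygalae Radix, 6 fell and 3 rose with Aucklandiae Radix, and 11 fell with Menthae Herba, where 59.6%, 35.7% and 29.6% of all genes were called. C5, the paralogue of C3, went from 106.9 ± 5.67 to 19.95 ± 3.48 CPM with Polygalae Radix (-2.41 ± 0.09) and to 50.87 ± 2.11 CPM with Menthae Herba (-1.07 ± 0.07). It fell with Guibi-tang by -0.40 ± 0.07 and with Soyo-san by -0.50 ± 0.08, where C3 was not called. The protease C1R led with Aucklandiae Radix at -1.36 ± 0.10, and factor D (CFD) rose there by 0.98 ± 0.13. Guibi-tang lowered 3 genes and raised none, Soyo-san moved 2 in each direction (9.56% and 28.6% of all genes called), and the remaining 2 extracts none.

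Of the coagulation and fibrinolysis list 20 of 27 genes were tested. The shares of all genes called, to be read beside these counts, were 59.6% for Polygalae Radix, 35.7% for Aucklandiae Radix, 29.6% for Menthae Herba, 28.6% for Soyo-san and 9.56% for Guibi-tang. With Polygalae Radix 16 fell and 2 rose. Prothrombin (F2), whose product cleaves fibrinogen, went from 3.472 ± 0.736 to 0.3433 ± 0.0165 CPM (-3.33 ± 0.28). With Aucklandiae Radix 8 rose and 6 fell, with thrombomodulin (THBD) lower by -1.08 ± 0.07. With class as a covariate 9 rose and 3 fell there. Menthae Herba lowered 10 and raised 2, including factor XII (F12), higher by 0.80 ± 0.15. Guibi-tang raised the thrombin receptor F2R by 0.47 ± 0.05, with 3 higher and 1 lower in all. Soyo-san gave 4 higher and 1 lower, Saposhnikoviae Radix 1 higher, and Saengmaek-san none.

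**Figure D5:**
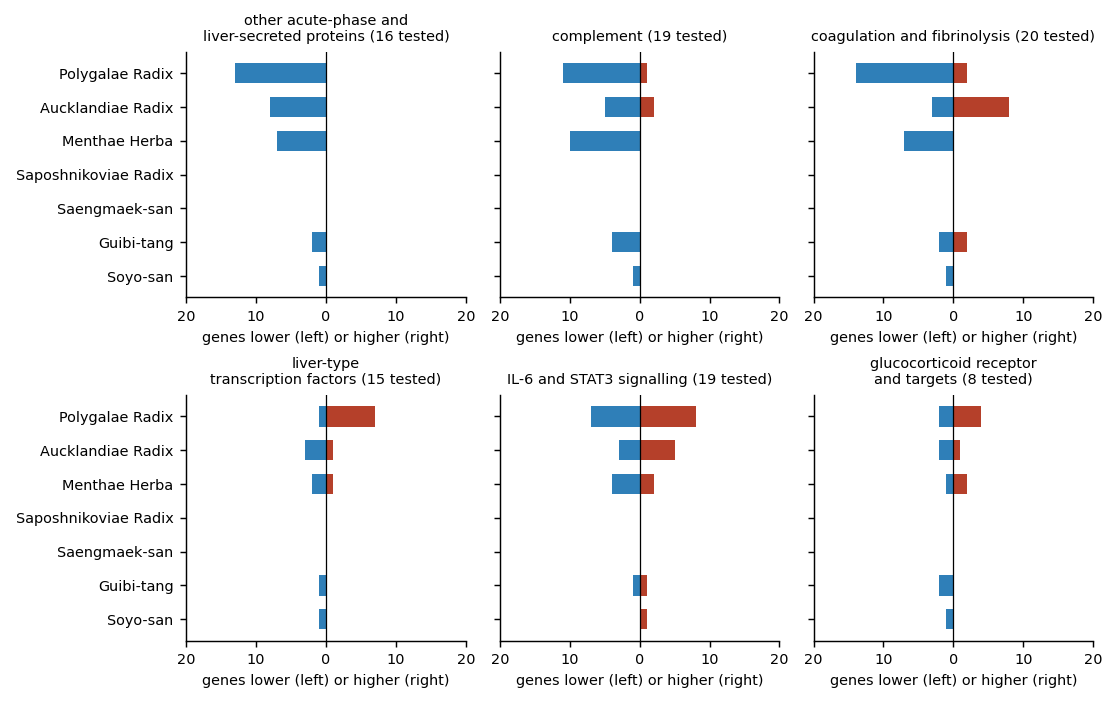
Number of genes called lower (left, blue) or higher (right, red) in the high against the low dose of each of the 7 replicated extracts, for 6 gene lists (edgeR adjusted p under 0.05). Acute-phase and liver-secreted genes were called only in the downward direction, 13 with Polygalae Radix, 8 with Aucklandiae Radix and 7 with Menthae Herba. Of all genes tested, 57%, 18.4% and 15.5% were called in these comparisons. Coagulation genes went both ways with Aucklandiae Radix, 8 higher and 3 lower.

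Among liver-type transcription factors 15 of 17 were tested, and HNF4A was followed through all comparisons because it was called in most extracts, a choice made after its values were seen. HNF4A, a nuclear receptor that sustains hepatocyte gene expression, fell from 91.53 ± 1.23 CPM in vehicle to 48.25 ± 2.22 CPM with Menthae Herba (-0.92 ± 0.05). It changed by -0.79 ± 0.06 with Aucklandiae Radix, -0.36 ± 0.05 with Guibi-tang, -0.17 ± 0.06 with Soyo-san and -0.17 ± 0.05 with Saengmaek-san, all called. The Saengmaek-san change lay just inside the threshold (edgeR adjusted p = 0.0495). With Saposhnikoviae Radix the change was of the same size, -0.17 ± 0.05, and was not called (edgeR adjusted p = 0.0886). With Polygalae Radix, which lowered the chains most, the HNF4A change was -0.13 ± 0.06 and was not called (adjusted p = 0.059). Against the low dose HNF4A fell in 4 of 7 extracts, the 4 being Aucklandiae Radix, Menthae Herba, Guibi-tang and Soyo-san. With class as a covariate the other extracts were called lower as well. These changes were -0.15 with Polygalae Radix, -0.25 with Saengmaek-san and -0.22 with Saposhnikoviae Radix (edgeR adjusted p of 0.0241, 0.00805 and 0.0362). CEBPA, a factor of liver and fat differentiation, rose by 1.85 ± 0.12 with Polygalae Radix, from 7.232 ± 0.666 to 26.03 ± 2.11 CPM. CEBPA was also called higher with Soyo-san (0.51 ± 0.13), Menthae Herba (0.45 ± 0.11), Guibi-tang (0.36 ± 0.12) and Aucklandiae Radix (0.34 ± 0.13), 5 of 7 extracts in all, and against the low dose with Polygalae Radix alone of the 7. Of the whole list 4 rose and 3 fell with Polygalae Radix (59.6% of all genes called), 1 rose and 8 fell with Aucklandiae Radix (35.7%), and 2 rose and 4 fell with Menthae Herba (29.6%). Guibi-tang gave 1 higher and 2 lower (9.56%), Soyo-san 2 higher and 3 lower (28.6%), Saengmaek-san HNF4A alone, and Saposhnikoviae Radix none. With class as a covariate 8 rose with Polygalae Radix.

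Genes of interleukin-6 and STAT3 signalling moved both ways, and 19 of 21 were tested. STAT3, the factor that carries the interleukin-6 signal, fell from 204.3 ± 1.67 to 77.57 ± 6.25 CPM with Polygalae Radix (-1.40 ± 0.05) and rose to 293.9 ± 14.9 CPM with Aucklandiae Radix (0.52 ± 0.05). It was also lower with Menthae Herba (-0.48 ± 0.04), Soyo-san (-0.19 ± 0.05) and Guibi-tang (-0.15 ± 0.04), so 4 of 7 extracts were called lower than vehicle and 1 higher. Against the low dose STAT3 was called lower in 2 of 7, Polygalae Radix and Menthae Herba, and higher in 1, Aucklandiae Radix. Guibi-tang (-0.04 ± 0.04) and Soyo-san (-0.15 ± 0.05) were not called there (edgeR adjusted p of 0.858 and 0.201). Against vehicle, the receptor gene IL6R fell by -0.87 ± 0.08 with Menthae Herba, and the shared receptor subunit IL6ST by -0.64 ± 0.13 with Soyo-san. IL6 itself reached no more than 0.12 CPM in any library. The counts higher and lower were 8 and 7 with Polygalae Radix, 4 and 4 with Aucklandiae Radix, 3 and 6 with Menthae Herba, 2 and 3 with Guibi-tang and 5 and 6 with Soyo-san, where 59.6%, 35.7%, 29.6%, 9.56% and 28.6% of all genes were called. Saposhnikoviae Radix and Saengmaek-san had 1 call each, the former higher and the latter, JAK1, lower. Of the glucocorticoid receptor and its targets 8 of 9 were tested, with 5 higher and 2 lower in Polygalae Radix, 2 and 2 in Aucklandiae Radix and Menthae Herba, 1 and 3 in Guibi-tang and 1 and 4 in Soyo-san, against the same shares of all genes. With Saposhnikoviae Radix and Saengmaek-san 1 fell, the phosphatase gene DUSP1, by -0.29 ± 0.07 and -0.27 ± 0.07. The target TSC22D3 rose by 1.40 ± 0.12 with Menthae Herba, and the receptor NR3C1 fell by -0.44 ± 0.09 with Soyo-san. The lists, like the 5 genes, were chosen with earlier results known and were described by counts alone.

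The genes whose pattern was most like each of the 5 were found by Spearman rho over the 25 group means of log2 CPM, among 11254 genes. The 5 genes themselves were left out of the 11254, as were genes of low mean level or without a symbol. For FGA the nearest genes were SPAG5 (0.882), FGFR3 (0.863) and HGD (0.818), where FGA had 0.896 with FGG and 0.868 with FGB. For FGB they were SCG2 (0.922), TGM2 (0.922) and MYORG (0.914), and for FGG HEXIM1 (0.922), INSL4 (0.901) and NTS (0.882). IGFBP3 (0.956), MYRF (0.955) and SEPTIN9 (0.938) were most like C3, and CLDN2 (0.908), ZBTB7B (0.86) and BMP1 (0.848) most like SERPINA1. These genes are the highest of all those compared and cannot be weighed against the fixed pairs of chains. Without the Polygalae Radix groups the rho of these genes ranged from 0.789 for HGD with FGA to 0.949 for INSL4 with FGG.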

How the data were processed

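RNA of A549 cells was sequenced in 60 libraries of 25 groups. The authors deposited expected counts per Ensembl gene, for which the submitters' processing notes name RSEM 1.3.3, STAR 2.7.3a, Trim Galore 0.6.5, FastQC 0.11.9 and the build GRCh38 (hg38). No annotation release was stated. Symbols were matched for 41706 of 60675 gene IDs. Of the values, 9.95% had decimals and were rounded. Total counts were 17113963 to 33363661 per library, and intervals cover counting error only.

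CPM were counts per TMM-normalised library total. Differences were tested with edgeR 4.0.16 (R 4.3.3, limma 3.58.1), quasi-likelihood F-test, on 57 libraries of 22 groups (35 residual degrees of freedom; Okbyeongpung-san, 1 library per dose, left out), over 18396 genes kept by filterByExpr, with Benjamini-Hochberg adjustment and a threshold of 0.05. Standard errors were derived from the log2 fold change and its F statistic. Of 31 contrasts, those of medium against low dose, low dose against vehicle and between extracts were added after the data were seen. On simulated data 199 of 200 changed genes were recovered and 10 unchanged genes called (simulating Menthae Herba high dose against vehicle over 18396 genes). Alternatives were DESeq2 1.42.0, its size factors, no filter, a replicate block, library class as a covariate or single classes, only the libraries compared, and leaving out each library.

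The 5 genes and the gene lists were chosen with earlier results of these data known. From each list up to 3 genes per extract could be named, those with the largest called change against vehicle with no overlap between the treated and the vehicle libraries; other list genes named were chosen after their values were seen. The labels do not say that replicates came from separate cultures, so p-values measure only the spread between these samples, which may be technical. The submitters left out samples of low RNA yield. Some results on single genes of the lists are not reported here. Same-numbered samples deviated together, with every correlation over 0.1, only in medium against low dose of Saengmaek-san and Guibi-tang. In high against low dose of these extracts some correlations, but not all, were over 0.1.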

Additional observations from a re-analysis of the deposited data

Results flagged for a closer look

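The change from low to high dose differed between extracts of the same library set, by a test of the difference itself in edgeR. Between Aucklandiae Radix and Polygalae Radix the log2 difference was 1.66 for C3, 1.36 for FGG, 1.52 for FGA, 1.03 for FGB and 2.13 for SERPINA1, the last on 1 to 23 counts per library. Between Menthae Herba and Saposhnikoviae Radix it was -1.58 for C3, -0.65 for FGG, -0.86 for FGA and -0.97 for FGB. Between Guibi-tang and Saengmaek-san it was -0.64 for C3, -0.45 for FGG and -0.58 for FGB, and these 3 were not called in a fit of only the libraries compared.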

How the results depend on the processing

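Of the 41 calls in the comparisons of the high dose with vehicle and with the low dose, 41 were also made with DESeq2 size factors, without the filter on low counts, with class as a covariate and by DESeq2, and 40 in fits of only the libraries compared; no alternative reversed a direction. The share of all genes called in each alternative fit may differ too and is not given here. Counts of the 5 genes called changed as follows. Aucklandiae Radix high against low dose gave 5 in place of 4 with the class covariate, in class 1 libraries, with the replicate block and with only the libraries compared, and Menthae Herba high against low dose 5 in place of 4 in class 1 libraries. Saposhnikoviae Radix against vehicle gave 1 in place of 0 with only the libraries compared. Its high against low dose gave 2 with the class covariate, 3 in class 1 libraries, 0 with only the libraries compared, 2 by DESeq2, and 0 to 1 when 1 library was left out. Saengmaek-san high against low dose gave 1 in place of 0 without the filter, with the class covariate and by DESeq2. In class 2 libraries Guibi-tang gave 1 in both comparisons in place of 4. Soyo-san against vehicle gave 0 to 3 when 1 library was left out, 0 being without high dose replicate 2. In the added comparisons Polygalae Radix medium against low dose gave 4 with the class covariate, 3 in class 1 libraries and 0 with only the libraries compared, in place of 2. Menthae Herba medium against low dose gave 1 in place of 3 with only the libraries compared, and low doses against vehicle gave up to 4 in place of 0 to 2. The cause was not tested. Leaving out 1 library in turn kept 15 of 20 calls against vehicle and 20 of 21 against the low dose in every fit; where that leaves 1 library in a group, it is assumed to vary like the rest.

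With the replicate number as a block (replicate block), 41 of the 41 calls were made and 1 was added, SERPINA1 in Aucklandiae Radix high against low dose at -1.28 (adjusted p = 0.0389). In the comparisons of the high dose with vehicle and with the low dose, no set of 3 pairs had a correlation of deviations over 0.1 in every pair. Some pairs did exceed 0.1 in high against low dose. The values there were 0.0225, 0.246 and 0.34 with Saengmaek-san and 0.0559, 0.104 and 0.414 with Guibi-tang. In medium against low dose every pair exceeded 0.1 with Saengmaek-san (0.252, 0.273 and 0.508) and Guibi-tang (0.205, 0.138 and 0.449), where the block and the unblocked fit both called 0 genes. In the comparisons added after the data were seen, the block added FGA in Soyo-san low dose against vehicle (adjusted p = 0.0452) and changed no other call.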
